A study of Aspergillus fumigatus with 4 samples.

Results

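A set of 73 of the 9540 predicted genes of *Aspergillus fumigatus* Z5 gave their most reads with sucrose as carbon source and far fewer with each of 3 plant polysaccharides. *A. fumigatus* is a filamentous fungus of compost and decaying plants, and Z5 is a compost isolate studied for its degradation of biomass. There was 1 RNA-seq library for each carbon source, from mycelium of the same strain grown at 45 °C and 145 rpm: sucrose (the control), xylan, cellulose (Avicel PH-101) and rice straw. Per the labels, conidia were grown for 20 h on sucrose (the methods of the study give a longer time), and the mycelium was then moved into medium with a polysaccharide as the sole carbon source, where it stayed for 16 h according to the methods of the study. The medium held urea and ammonium sulfate throughout, and its recipe in the study lists no nitrate salt. The medium used for the polysaccharides lacked the yeast extract of the sucrose medium, which can also supply nitrogen. According to the study, sucrose was also given at a higher concentration than the polysaccharides. The carbon source therefore cannot be told apart from its concentration, the transfer, the yeast extract and the age of the culture. With 1 library per carbon source there was no replicate, so no difference below has a test over cultures, and every interval covers counting error only.

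The members were chosen from the read counts themselves. Levels are reads per 1000000 reads of the library (RPM), computed for the selection with 0.5 read added to each gene and given below without it. A gene was a member when it had at least 10 RPM on sucrose and at least 4 times its RPM in each of the other 3 libraries. Of 6246 genes with at least 10 RPM on sucrose, 80 met the fold in all 3 comparisons (1.28%), and 7 of those lie at loci that the selection left out, which leaves 73. Since the rule used sucrose against each other library, those ratios are given as a description. The libraries held 7005719 (sucrose), 6820702 (xylan), 7016686 (cellulose) and 7553138 (rice straw) reads on genes, so 1 read was worth between 0.132 and 0.147 RPM.

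When a preferred sugar such as sucrose is plentiful, filamentous fungi hold back many genes for other carbon sources, a control known as carbon catabolite repression, and they grow and build cell wall quickly. The genes considered here have the opposite profile, being high on the preferred sugar. Several belong to functions that fungi switch on and off as groups: nitrate assimilation, in which nitrate is reduced to nitrite and then to ammonium, and secondary metabolism, whose genes often sit side by side on a chromosome and carry their own transcription factor.

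Together the 73 members took 3.02% of all gene reads with sucrose, 0.342% with xylan, 0.157% with cellulose and 0.192% with rice straw. Their median level was 122.3 RPM on sucrose (lowest 9.99, highest 5145), 10.3 RPM with xylan, 1.995 RPM with cellulose and 4.63 RPM with rice straw. On the polysaccharides, 36 members were under 10 RPM with xylan, 57 with cellulose and 45 with rice straw. The median ratio of sucrose to the other library was 7.46 for xylan, 30.8 for cellulose and 16.4 for rice straw, with the 0.5 read of the rule included. Over all 9540 genes the median log2 ratio to sucrose was -0.18 for xylan, 0.04 for cellulose and -0.28 for rice straw. Among the 6246 genes of at least 10 RPM on sucrose, 2.37% were 4-fold lower with xylan, 10.9% with cellulose and 10.7% with rice straw. Xylan was thus the comparison that admitted the fewest genes. The selection fixed the direction and the minimum size of all these ratios.

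**Figure D1:**
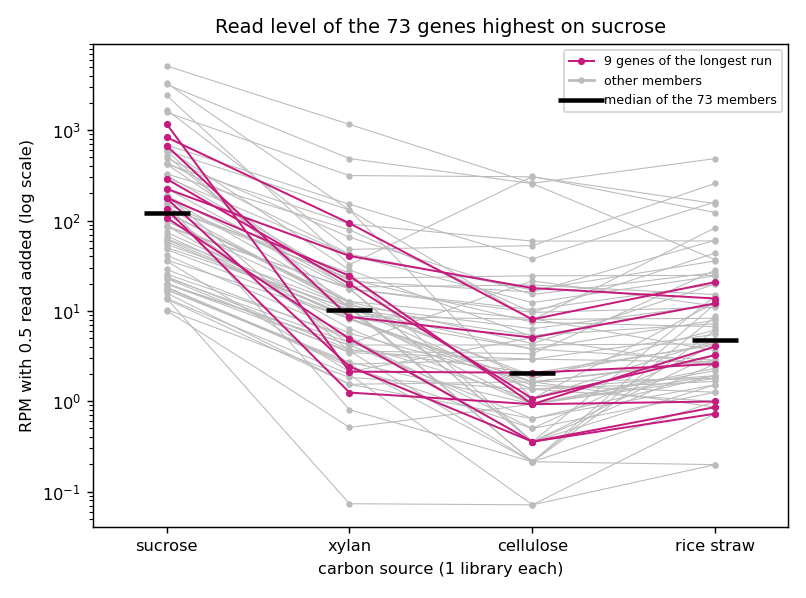
Level of each of the 73 members in the 4 libraries, in RPM with 0.5 read added on a log scale; each line is a gene, pink lines are the 9 neighbouring genes with the polyketide synthase, and black bars are medians. The black bar is highest on sucrose and lowest on cellulose, the lowest polysaccharide for 53 of the 73 lines.

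The 10 members of highest sucrose RPM held 68.8% of the members' summed sucrose RPM. The highest was Y699_05806, a hypothetical protein of 498 coding bases, with no Af293 (reference strain) counterpart named in the authors' texts held here. It had 5145 RPM with sucrose, 1160 with xylan, 258 with cellulose and 485 with rice straw. These were the highest levels of any member on sucrose, xylan and rice straw. Its ratio of sucrose to xylan, 4.43 (95% counting interval, 4.33 to 4.54), was close to the threshold. It was no longer a member when the libraries were scaled by TMM or DESeq2 size factors.

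Y699_00773 (cipC) encodes a CipC-like protein, a family first found in *A. nidulans* as induced by the antibiotic concanamycin. It had 3333 RPM with sucrose, 130.5 with xylan, 7.84 with cellulose and 83.3 with rice straw. Sucrose exceeded xylan 25.6-fold (23.9 to 27.4), cellulose 425-fold (327 to 565) and rice straw 40.0-fold (37.0 to 43.4). Per kilobase of coding length, Y699_05806 and Y699_00773 were first and second of the members on sucrose, with 10330.3 and 8482 RPM per kb.

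Y699_01872, a member of the ThiJ/PfpI family, had 3209 RPM with sucrose, 485 with xylan, 256 with cellulose and 36.8 with rice straw. Rice straw was its low library, where most members were lowest on cellulose. Y699_00235, for which no function text was held, went the other way: 2434 RPM with sucrose, 32.4 with xylan, 307 with cellulose and 122 with rice straw. It was the member with the most reads on cellulose. Y699_08017, an Asp F4-like protein named after an allergen of this fungus, had 1683 RPM with sucrose, 47.8 with xylan, 52.7 with cellulose and 258 with rice straw, and was highest of the polysaccharides on rice straw. Y699_04757, a hypothetical protein, had 686 RPM with sucrose, 151 with xylan, 37.5 with cellulose and 161 with rice straw.

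The highest ratio of sucrose to the highest other library belonged to Y699_07828, which encodes a phenol hydroxylase, a flavoenzyme that adds a hydroxyl group to an aromatic ring. It gave 8216 reads on sucrose and 14, 14 and 19 reads on xylan, cellulose and rice straw, which is 1173 RPM against 2.05, 1.995 and 2.52 RPM. The ratios were 571 (340 to 1046), 588 (350 to 1076) and 466 (298 to 775). Its 3 polysaccharide libraries could not be told apart at this depth, since each pairwise interval held 1. The gene lies in the longest run of neighbouring members, described next.

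Position was not part of the rule. Locus numbers in Z5 follow the scaffolds, and 19 of the 73 members (26.03%) had a locus number next to that of another member. They formed 5 runs, of 9, 4, 2, 2 and 2 genes. The 116 genes directly beside a member that were not members themselves included 65 with at least 10 RPM on sucrose. Of those 65, 7.69% were 4-fold lower with xylan, 27.7% with cellulose and 29.2% with rice straw, beside 2.37%, 10.9% and 10.7% of all genes at that level. The 65 include the nitrite reductase gene, which met the fold and was left out by locus. Whether the authors counted reads by strand is not given in the sources used here, so reads of overlapping neighbours cannot be told apart.

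The run of 9 covers Y699_07826 to Y699_07834. In the order of their locus numbers the genes encode a nucleoside-diphosphate-sugar epimerase family protein, a hypothetical protein, the phenol hydroxylase, an MFS transporter (a membrane carrier), a short FAD-dependent oxidoreductase, another hypothetical protein, a C6 transcription factor (the zinc-cluster type that many fungal metabolite clusters carry), a short-chain dehydrogenase/reductase and a polyketide synthase, the enzyme that builds the carbon backbone of a polyketide. The authors placed 7 of the 9 in a predicted metabolite cluster. All 9 lie in a fragment that the authors marked as co-regulated on these same libraries, which is therefore no independent evidence. For 8 of the 9 the authors named a counterpart in Af293, with locus tags from AFUA_3G02570 to AFUA_3G02640 that descend as the Z5 numbers ascend.

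Summed over the 9 genes, the level was 3791 RPM with sucrose, 196.6 with xylan, 36.1 with cellulose and 58.5 with rice straw. That is 12.6% of the members' summed sucrose RPM. Sucrose exceeded xylan 19.3-fold (18.3 to 20.4), cellulose 105-fold (92.9 to 119.5) and rice straw 64.8-fold (59.0 to 71.3). The flanking genes had low levels on sucrose. On the left, Y699_07825 had 14.8 RPM on sucrose and 13.6, 1.28 and 4.10 RPM on xylan, cellulose and rice straw, and Y699_07824 had 0 reads in all 4 libraries. On the right, Y699_07835 had 22.6 RPM on sucrose and 12.6, 2.14 and 1.46 RPM on xylan, cellulose and rice straw, and Y699_07836 had 2 reads on sucrose. On cellulose and on rice straw both direct flanks were thus also well below sucrose, and on xylan they were closer to it.

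**Figure D2:**
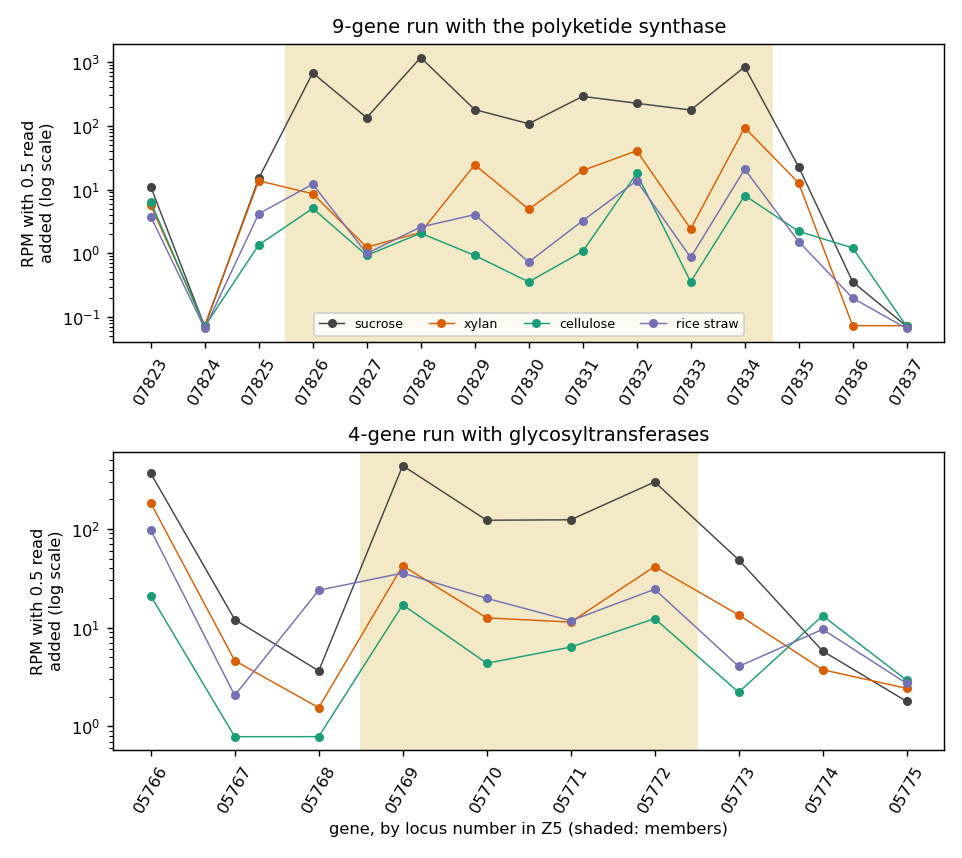
Level of neighbouring genes by locus number around the 9-gene run (top) and the 4-gene run (bottom), in RPM with 0.5 read added on a log scale, 1 colour per library, members shaded. Sucrose stands above the other 3 libraries throughout the shaded genes, and at the flanking Y699_07825 it is 14.8 RPM beside 13.6, 1.28 and 4.10 RPM on xylan, cellulose and rice straw.

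Within the run, the genes shared their high level on sucrose but not what was left on xylan. The left end was low in every polysaccharide library. The epimerase gene Y699_07826 had 674 RPM with sucrose, 8.50 with xylan, 4.99 with cellulose and 12.1 with rice straw. The hypothetical gene Y699_07827 had 133.5 RPM on sucrose and 1.17, 0.855 and 0.927 RPM on xylan, cellulose and rice straw. With the phenol hydroxylase these 3 genes had a ratio of xylan to cellulose between 1.03 and 1.71.

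In the middle of the run, xylan stood further above cellulose. The MFS transporter gene Y699_07829 had 179 RPM with sucrose, 24.3 with xylan, 0.855 with cellulose and 3.97 with rice straw, and xylan exceeded cellulose 28.5-fold (12.8 to 78.7). The short oxidoreductase gene Y699_07830, of 222 coding bases, had 107.5 RPM on sucrose and 4.84, 0.285 and 0.662 RPM on xylan, cellulose and rice straw. The hypothetical gene Y699_07831 had 288.5 RPM on sucrose and 19.8, 0.998 and 3.18 RPM on xylan, cellulose and rice straw, a 19.8-fold (9.37 to 50.3) excess of xylan over cellulose. For both named excesses the counting interval stays far from 1, unlike that of the phenol hydroxylase, 1.03 (0.455 to 2.33).

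The regulator and the synthase at the right end differed again. The C6 transcription factor gene Y699_07832 had 225 RPM with sucrose, 40.5 with xylan, 17.8 with cellulose and 13.6 with rice straw. It had the smallest ratio of sucrose to the highest other library in the run, 5.56 (4.89 to 6.34), and the most reads of the run on cellulose. The dehydrogenase gene Y699_07833 had 176 RPM on sucrose and 2.35, 0.285 and 0.794 RPM on xylan, cellulose and rice straw. The polyketide synthase gene Y699_07834 had 835 RPM with sucrose, 93.1 with xylan, 7.98 with cellulose and 20.8 with rice straw. The synthase thus kept the most reads of the run on xylan, 11.7-fold (8.87 to 15.6) above cellulose.

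The run of 4 covers Y699_05769 to Y699_05772 and holds genes of glycan assembly. Y699_05769 encodes a nucleotide-sugar transporter, which carries activated sugars into the secretory pathway. It had 437 RPM with sucrose, 42.4 with xylan, 16.96 with cellulose and 35.6 with rice straw. Y699_05770 is a glycosyltransferase of family GT32, with 122.3 RPM on sucrose and 12.5, 4.28 and 19.7 RPM on xylan, cellulose and rice straw. Y699_05771 is a putative GlcNAc-PI de-N-acetylase of family CE14, an enzyme type of glycolipid anchor synthesis, with 123.6 RPM on sucrose and 11.3, 6.27 and 11.7 RPM on xylan, cellulose and rice straw. Y699_05772, a hypothetical protein placed in glycosyltransferase family GT69, had 299 RPM on sucrose and 41.5, 12.3 and 24.4 RPM on xylan, cellulose and rice straw.

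These 4 genes were more alike than the run of 9. Summed, they had 982 RPM with sucrose, 107.6 with xylan, 39.8 with cellulose and 91.4 with rice straw. The next gene, the glycosyltransferase Y699_05773, had 48.5 RPM on sucrose and 13.3, 2.14 and 3.97 RPM on xylan, cellulose and rice straw, and missed the fold on xylan with 3.62. On the other side Y699_05768 had 3.57 RPM on sucrose and 23.8 RPM on rice straw. The authors placed the 4 genes in a cluster of carbohydrate-active enzyme genes and in a fragment marked as co-regulated on these libraries.

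There were 3 runs of 2 genes. Y699_08017, the Asp F4-like gene, lies beside Y699_08018, a C6 transcription factor gene with 120.6 RPM on sucrose and 4.25, 21.4 and 11.2 RPM on xylan, cellulose and rice straw. Their low libraries differed: the allergen-like gene was higher on rice straw than on xylan 5.395-fold (4.80 to 6.09), and the regulator gene was higher on cellulose than on xylan 5.03-fold (3.36 to 7.76). Y699_02223, a hypothetical gene of 252 coding bases, had 189 RPM on sucrose, 17.4 RPM on xylan, 14.6 RPM on rice straw and 2 reads on cellulose. Its neighbour Y699_02224 had 28.7 RPM on sucrose and 4.84, 0.428 and 1.19 RPM on xylan, cellulose and rice straw.

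Y699_05854 is paired with the Af293 gene that carries the symbol ergS and is a hypothetical protein in the authors' text. It had 626 RPM with sucrose, 28.3 with xylan, 5.13 with cellulose and 11.9 with rice straw. Beside it, Y699_05853 had 96 reads with sucrose, 0 with xylan, 0 with cellulose and 1 with rice straw. Against a floor of 3 reads in the empty library, sucrose was at least 31.15-fold higher than xylan and at least 32.05-fold higher than cellulose. It was the only member with no read in more than 1 library.

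Genes of nitrogen metabolism were chosen by words in the function texts of the authors, most of which come from a table, held in part here, of genes found to vary between these libraries. A text was held for 2588 of the 9540 genes and for 60 of the 73 members. The lists are therefore read beside the 2588 genes with a text. In list counts, 4-fold lower also asks for at least 10 RPM on sucrose, and 4-fold higher for at least 10 RPM on the polysaccharide. Of the 2588 genes, 95, 544 and 432 were 4-fold lower and 209, 831 and 632 were 4-fold higher on xylan, cellulose and rice straw, and their median log2 ratio to sucrose was 0.01, 0.93 and 0.37. The nitrogen list had 27 genes, of which 6 were members. Of the 27, 8 were 4-fold lower with xylan, 10 with cellulose and 9 with rice straw. The other direction was seen too: 1, 5 and 4 genes of the list were 4-fold higher on xylan, cellulose and rice straw. The list's median log2 ratio to sucrose was -0.68 with xylan, -0.52 with cellulose and -1.01 with rice straw.

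The nitrate pathway supplied Y699_05084 (niaD), the nitrate reductase, which turns nitrate into nitrite. It had 487 RPM with sucrose, 65.2 with xylan, 15.1 with cellulose and 26.5 with rice straw. The ratios of sucrose to the others were 7.47 (6.76 to 8.26), 32.2 (26.6 to 39.5) and 18.4 (15.9 to 21.3). Its neighbour Y699_05083 (NiiA), the nitrite reductase, was left out by locus and had 2333, 335, 3.14 and 115 RPM on sucrose, xylan, cellulose and rice straw. The order of the libraries was the same in the pair. A second gene with a nitrate reductase text, Y699_00875, had 61.4 RPM on sucrose and 8.65, 7.98 and 8.21 RPM on xylan, cellulose and rice straw. Its polysaccharide levels could not be told apart at this depth.

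Ammonium uptake and assimilation supplied another pair of members. The ammonium transporter gene Y699_03361 (meaA), whose product takes up ammonium in *A. nidulans*, had 226 RPM with sucrose, 18.3 with xylan, 19.2 with cellulose and 15.1 with rice straw. Y699_01116 encodes glutamate synthase Glt1, which makes glutamate from glutamine and 2-oxoglutarate. It had 1575 RPM with sucrose, 314.5 with xylan, 304.6 with cellulose and 154 with rice straw. Even at its lowest this gene kept more reads than most members had on sucrose, but over 6381 coding bases, which places it 18th of the members on sucrose by RPM per kb, at 246.8.

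Of the other nitrogen members, Y699_02107, an amino acid transporter gene, had 54.5 RPM on sucrose and 10.3, 3.71 and 7.81 RPM on xylan, cellulose and rice straw. The purine-cytosine permease gene Y699_02841 had 35.5 RPM on sucrose and 2.05, 4.99 and 2.38 RPM on xylan, cellulose and rice straw. Other genes of the list were higher on the polysaccharides. Allantoinase Y699_04787, an enzyme of purine breakdown, had 33.8 RPM on sucrose and 114, 655 and 911 RPM on xylan, cellulose and rice straw. Glutamine synthetase Y699_03520 had 1.71 RPM on sucrose and 2.35, 435 and 25.7 RPM on xylan, cellulose and rice straw. The amino acid permease gene Y699_02930, of the same kind of function as Y699_02107, had 4.57 RPM on sucrose and 70.1, 257.5 and 94.1 RPM on xylan, cellulose and rice straw. These comparison genes were chosen after their values were seen.

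**Figure D3:**
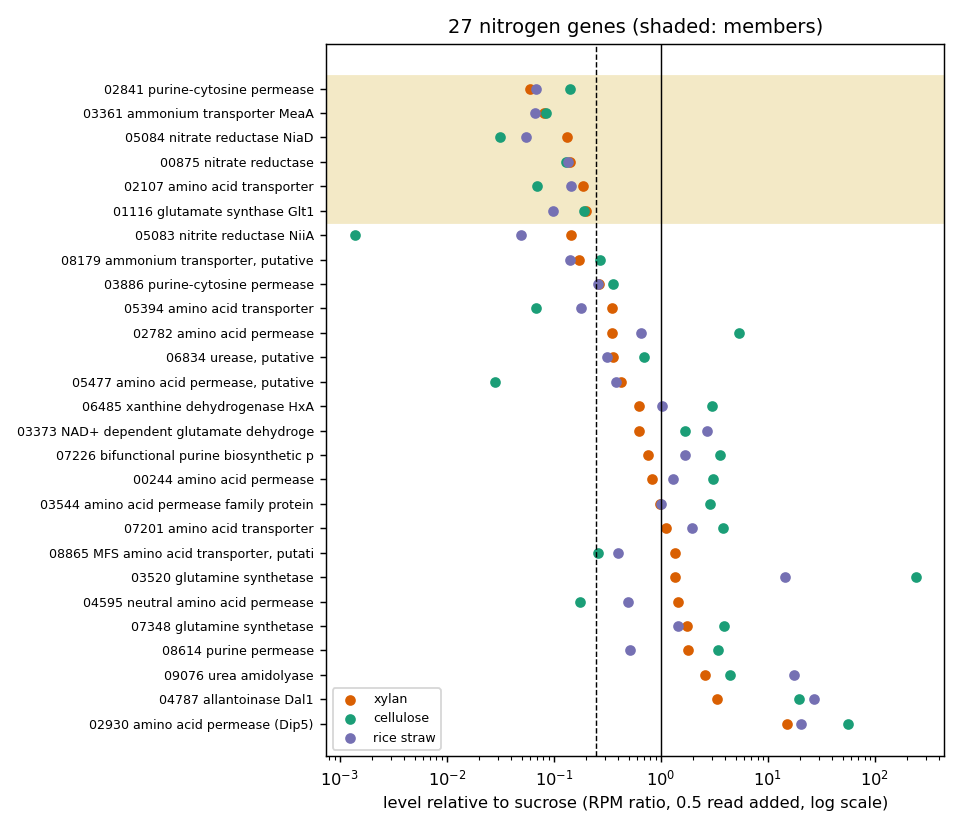
Level of the 27 genes of the nitrogen list on each polysaccharide relative to sucrose (ratio of RPM with 0.5 read added, log scale); the solid line marks equal levels, the dashed line 4-fold lower, and the 6 members are shaded. The members lie left of the dashed line by selection, and the remaining genes spread to both sides of the solid line, with glutamine synthetase Y699_03520 farthest right on cellulose.

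Transport genes were the largest group with a named function, 10 members of a list of 155. Of the 155, 16 were 4-fold lower with xylan, 41 with cellulose and 32 with rice straw, and 25, 55 and 59 were 4-fold higher, with a median log2 ratio of 0.15, 1.58 and 1.08. The MFS multidrug transporter gene Y699_03683 had 317 RPM on sucrose and 21.3, 16.1 and 60.4 RPM on xylan, cellulose and rice straw. Y699_02117, a carrier of malate and related acids, had 137 RPM with sucrose, 26.2 with xylan, 0.285 with cellulose and 3.31 with rice straw. Another MFS multidrug transporter gene, Y699_00068, had 121.6 RPM on sucrose and 12.2, 1.71 and 6.09 RPM on xylan, cellulose and rice straw.

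The regulator list had 107 genes, 5 of them members, all of the C6 zinc-cluster type. Over the list, 5 genes were 4-fold lower and 5 were 4-fold higher on xylan, 19 lower and 49 higher on cellulose, and 20 lower and 29 higher on rice straw, with a median log2 ratio to sucrose of -0.11, 1.95 and 0.70. The 5 genes lower on xylan were the 5 members. Y699_03653 was the highest of them, with 422 RPM on sucrose and 17.4, 10.3 and 19.6 RPM on xylan, cellulose and rice straw. Y699_01630 had 420.5 RPM on sucrose but kept 91.3, 59.1 and 59.4 RPM on xylan, cellulose and rice straw. The lowest, Y699_02097, had 94 reads on sucrose and 10, 4 and 11 on xylan, cellulose and rice straw.

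The wall list, made by words in the function texts, had 2 members at the loci kept by the selection. Secretion of the members was not assessed. Y699_07627, a cell wall protein held by a glycolipid anchor, had 3668 reads with sucrose, 73 with xylan, 1 with cellulose and 65 with rice straw. Its ratio of sucrose to cellulose was 3674 with a counting interval of 659 to 145144.1, so its size rests on a single read. The other member of the wall list, the beta-glucanase gene Y699_00194 (eng4), had 36.4 RPM on sucrose and 8.21, 1.43 and 1.19 RPM on xylan, cellulose and rice straw. The wall list had 131 genes, of which 5, 19 and 13 were 4-fold lower and 12, 39 and 33 were 4-fold higher on xylan, cellulose and rice straw, and 3 more of its genes met the fold at loci left out. Its median log2 ratio to sucrose was 0.04, 1.11 and 0.08.

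Y699_07885 encodes a glycoside hydrolase of family GH76, which cleaves mannan. It gave 1088 reads with sucrose, 5 with xylan, 1 with cellulose and 46 with rice straw, so its polysaccharide level was highest on rice straw. The protease list had 2 members. Tripeptidyl peptidase Y699_09209 (sedD), a secreted protease, had 190 RPM with sucrose, 3.52 with xylan, 3.28 with cellulose and 28.2 with rice straw. It was higher on rice straw than on cellulose 8.60-fold (5.58 to 13.9). The alkaline serine protease gene Y699_08513 (pr1) had 41.2 RPM on sucrose and 5.57, 1.57 and 0.794 RPM on xylan, cellulose and rice straw, which is the other order.

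The protease list of 34 genes had 2, 9 and 11 genes 4-fold lower and 5, 11 and 13 higher on xylan, cellulose and rice straw, with a median log2 ratio of -0.13, 0.62 and 0.18. The antigen list, by the words allergen, Asp F or antibiotic response, had 10 genes, 3 of them members. These were Y699_08017, Y699_08513 and Y699_00773, the last through the words antibiotic response, since its text names no allergen. Of the 10, 4 were 4-fold lower with xylan, 7 with cellulose and 5 with rice straw, and 0, 1 and 1 were higher. The list's median log2 ratio to sucrose was -0.56, -3.90 and -2.02. Besides the members, Y699_07380 met the fold and was left out by locus. Y699_03165, whose text is allergen Asp F4, had 649 RPM on sucrose and 1106, 157.5 and 1158 RPM on xylan, cellulose and rice straw. Y699_03165 was chosen after its values were seen.

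Outside the 9-gene run, the metabolite list of 57 genes, made by words in the function texts, had 1 member, Y699_09439. By position, 10 members (13.7%, beside 4.61% of all genes) lay in metabolite clusters predicted by the authors. These were 7 genes of the run, Y699_09439, Y699_02117 and Y699_07659. Y699_09439 carries a text after Fum3, a dioxygenase of fumonisin synthesis in *Fusarium*. It had 594 RPM with sucrose, 8.21 with xylan, 1.57 with cellulose and 2.78 with rice straw, and sucrose exceeded xylan 72.4-fold (55.6 to 96.0). The whole metabolite list had 4, 8 and 14 genes 4-fold lower and 9, 21 and 7 higher on xylan, cellulose and rice straw, with a median log2 ratio of 0.03, 1.58 and -0.89. The gene lies near Y699_09434, a hypothetical gene with 592 RPM on sucrose, 131 RPM on xylan, 12.3 RPM on rice straw and 0.998 RPM on cellulose. The sucrose levels of the nearby pair were alike and their xylan levels were not.

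The rule compared each polysaccharide with sucrose and not with the others, but it used the same values, so the order of the 3 libraries among the members is a description. By point values, cellulose was the lowest of the 3 for 53 members (72.6%), rice straw for 11 and xylan for 9. Counting error leaves many of these orders open. The interval of rice straw over cellulose lay above 1 for 34 members, lay below 1 for 6 and held 1 for 33. For xylan over rice straw these counts were 39, 9 and 25. Among the 6246 genes of at least 10 RPM on sucrose, cellulose was lowest for 28.5%, rice straw for 40.3% and xylan for 31.2%. Xylan was the highest of the 3 for 48 members (65.8%), rice straw for 20 and cellulose for 5, beside 35.5%, 18.7% and 45.8% of the 6246 genes. These genes were not held to the fold and are no neutral comparison. The share of members lowest on cellulose moved with the fold: 183 of 377 at 2-fold, 53 of 73 at 4-fold and 24 of 26 at 8-fold. The commonest full order, xylan above rice straw above cellulose, was seen in 38 members.

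**Figure D4:**
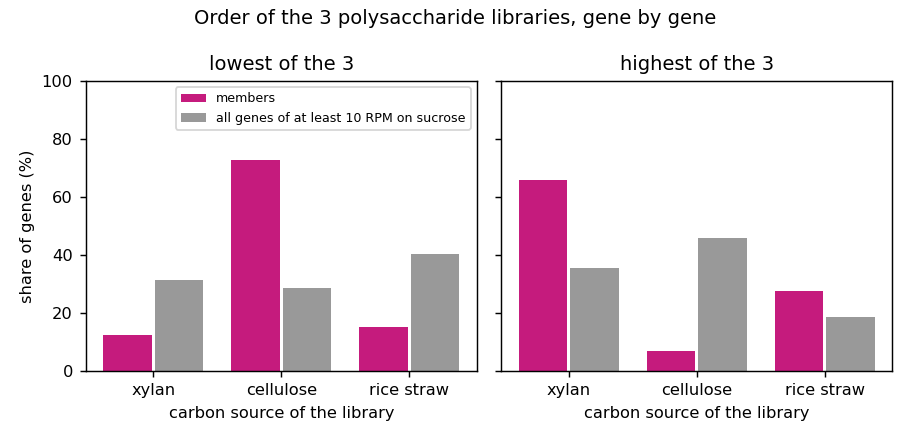
Share of genes for which each polysaccharide library was the lowest (left) or the highest (right) of the 3, for the 73 members and for the 6246 genes of at least 10 RPM on sucrose. Cellulose was lowest for 72.6% of the members and 28.5% of the 6246 genes, and xylan was highest for 65.8% and 35.5%; the members were selected on these values and the 6246 genes were not.

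A contrast between polysaccharides was called when the levels differed at least 4-fold and reached 10 RPM in either library. By that measure 18 of the 73 members were higher on xylan than on cellulose, beside 8.53% of the 6246 genes, and 2 were higher on cellulose than on xylan, beside 6.8%. Between xylan and rice straw, 8 members were higher on xylan (5.97% of the 6246 genes) and 2 on rice straw (2.45%). Between rice straw and cellulose, 9 members were higher on rice straw (4.64%) and 1 on cellulose (4.39%). The fold against sucrose limits the members' levels in these libraries, so the shares are not read against each other. Only 38, 40 and 28 members reached 10 RPM in either library of these pairs. The median log2 ratio of xylan to cellulose was 1.75 in the members and -0.13 in the 6246 genes.

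The 18 members that were higher on xylan than on cellulose came from several groups. They included the polyketide synthase, the MFS transporter and the hypothetical gene Y699_07831 of the long run, niaD, cipC and the wall protein Y699_07627. The firmest excess was that of Y699_09434, 131-fold (63.4 to 327) from 893 reads on xylan and 7 on cellulose. The transporter gene Y699_02117 followed with 92.1-fold (25.1 to 766). Y699_02141, of the sterol dehydrogenase/decarboxylase family, had 84.5 RPM with sucrose, 17.7 with xylan, 0.285 with cellulose and 1.46 with rice straw, an excess of 62.2-fold (16.9 to 520). Y699_02223 had an excess of 61.2-fold (16.6 to 511). For 52 of the 73 members the counting interval of xylan over cellulose lay above 1, for 3 it lay below 1, and for 18 it held 1.

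At 4-fold and at least 10 RPM in either library there were 2 exceptions. Y699_00235 was higher on cellulose than on xylan 9.49-fold (8.26 to 10.9). The other was the regulator gene Y699_08018 described beside the Asp F4-like gene. Below 4-fold, the interval of the purine-cytosine permease gene Y699_02841 also lay on this side, with cellulose 2.43-fold (1.275 to 4.89) above xylan. Rice straw stood above cellulose in the hypothetical gene Y699_09467, with 140 RPM on sucrose, 11.1 RPM on xylan, 11.9 RPM on rice straw and 1 read on cellulose. At 4-fold, cellulose stood above rice straw only in the ThiJ/PfpI gene Y699_01872, which was also higher on xylan than on rice straw 13.2-fold (11.7 to 14.96).

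**Figure D5:**
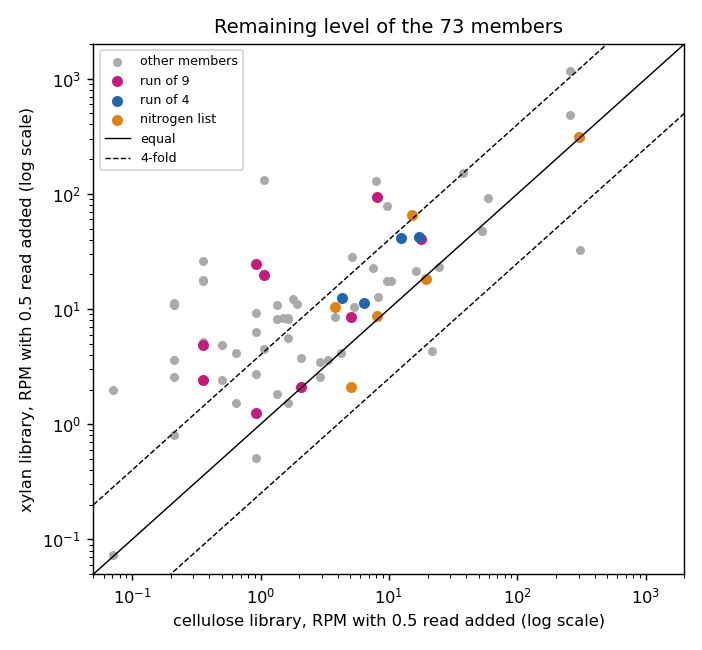
Level of the 73 members in the cellulose library (horizontal) and the xylan library (vertical), in RPM with 0.5 read added on log scales; the solid line marks equal levels and the dashed lines 4-fold differences. Most points lie above the solid line, with 2 genes of at least 10 RPM beyond the lower dashed line (Y699_00235 and Y699_08018).

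The cellulose library also differed in markers of conidia, the asexual spores. Of the 9 genes of that list none was a member, none was at 0 reads in any library, and 7 were 4-fold higher on cellulose than on sucrose, beside 2 on xylan and 1 on rice straw. Their summed level was 380 RPM with sucrose, 365 with xylan, 4537 with cellulose and 567 with rice straw. Outside the cellulose library most of this sum came from the transcription factor gene Y699_03003 (StuA). That gene had 294 RPM with sucrose, 243 with xylan, 1008 with cellulose and 477 with rice straw. The higher sum with rice straw than with sucrose is therefore not read as a rise of the list. The list's median log2 ratio to sucrose was 0.89 with xylan, 4.47 with cellulose and 0.06 with rice straw. The spore coat hydrophobin genes had 0.571 RPM on sucrose and 512.5 RPM on cellulose (RodA) and 4.85 and 2072 RPM (RodB). The part of conidia in the low cellulose levels of the members was not tested. In such bulk libraries fewer cells of a type and less RNA per cell cannot be told apart.

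Just inside the threshold lay the carbonyl reductase gene Y699_00780 with a ratio of sucrose to the highest other library of 4.14, the isoamyl alcohol oxidase gene Y699_08796 with 4.16 and the hypothetical gene Y699_04757 with 4.26. Just outside lay the glycosyltransferase gene Y699_09216 with 3.98, the UDP-glucose epimerase gene Y699_09219 with 3.93 and the metacaspase gene Y699_01157 with 3.87. All 3 genes just inside were lost with TMM and with DESeq2 size factors, as were Y699_05806, Y699_09434 and Y699_00194. Y699_01630 was lost with DESeq2 size factors.

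No function text was held for 13 members, among them Y699_00235, Y699_05853 and Y699_02224. Members not named above include an acid phosphatase (Y699_06918), a lipase (Y699_08515) and a protein with a NACHT domain (Y699_07110). The lipase gene had 96 reads with sucrose, 13 with xylan, 0 with cellulose and 5 with rice straw. Y699_07110 had 151 RPM on sucrose and 22.4, 7.41 and 6.62 RPM on xylan, cellulose and rice straw. These were chosen after their values were seen. The coding length of the members had a median of 1134 bases, beside 1434 bases for the 6246 genes of at least 10 RPM on sucrose.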

How the data were processed

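RNA-seq was done on 1 library per carbon source. Poly(A) RNA was made into cap-selected cDNA and sequenced on an Illumina instrument. The authors mapped clean reads to the genome or annotated genes of Z5 (Bowtie 0.12.2 in the submitters' processing notes; for the counter, strand and multi-mapping nothing is given in the sources used here). They deposited read counts per gene, a gene length that is the coding length, RPM (reads over the column total, not divided by length), and the log2 ratios and q-values of their own comparisons, which were not used. All 4 count columns were matched to their libraries by name.

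RPM, ratios and exact (Clopper-Pearson) 95% counting intervals were computed with Python 3.11.15 and scipy 1.17.1. PCR reads without molecular identifiers are not independent molecules, so the intervals and the floor of 3 reads for a library at 0 cover counting error only. Printed levels carry no added read. No library was replicated, so no test over cultures was possible. Alternative scalings and an exact test with a set dispersion used edgeR 4.0.16 and DESeq2 1.42.0 in R 4.3.3. A read test used scipy. Both tests compare 2 libraries and not the conditions.

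The members and the lists were chosen with earlier results of these data known. The genes named were the 10 of highest sucrose RPM, the 10 with the highest lower bound of the ratio of sucrose to the highest other library, every member in a run of at least 3 with locus numbers at most 2 apart, up to 6 members of each list, the 3 members just inside and the 3 genes just outside the fold, and up to 10 members that differed most between polysaccharides. Y699_05853 and Y699_02224 were named besides, as neighbours of such members. Af293 symbols come from RefSeq (ASM265v1), in which all 48 Af293 counterparts named by the authors were found, 7 with a symbol. Sequences were not used here.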

Additional observations from a re-analysis of the deposited data

How the results depend on the processing

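TMM and DESeq2 size factors gave 65 and 64 members, of which 63 and 62 were among the 73. Relative to the library totals they moved log2 ratios to sucrose by 0.19 and 0.21 on xylan, -0.08 and -0.08 on cellulose and 0.30 and 0.30 on rice straw. Under both, xylan was the lowest polysaccharide for 4 members in place of 9, rice straw for 7 in place of 11, and 1 wall gene in place of 2 was a member. A total without the top 1% of genes gave 69 members, and adding 1 or 0 reads gave 73 and 72. With a minimum of 20 RPM there were 61. The counts of contrasts between polysaccharides stayed within 1.5 times under the read test, and under edgeR's exact test at a coefficient of variation set to 0.2. Both compare single libraries and say nothing of variation between cultures.

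With no RPM minimum there were 109 members, 36 had a neighbouring member, 78 were highest on xylan and 30 lowest on rice straw. With no locus left out, the wall list had 5 members of 80.

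The fold set the size of the group. At 2-fold there were 377 members, 88 of them with a neighbouring member; xylan, cellulose and rice straw were lowest for 32, 183 and 162, and highest for 249, 74 and 54. Higher by 4-fold were xylan over cellulose in 64, xylan over rice straw in 46, rice straw over cellulose in 26 and cellulose over rice straw in 11. Members by list were then 10 (nitrogen), 7 (wall), 27 (transport), 9 (protease), 9 (regulators), 7 (metabolite) and 54 (hypothetical).

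At 8-fold there were 26 members, 9 with a neighbouring member; xylan, cellulose and rice straw were lowest for 0, 24 and 2, and highest for 18, 1 and 7. Higher by 4-fold were xylan over cellulose in 9, xylan over rice straw in 3 and rice straw over cellulose in 3, with 0 in each other direction. Members by list were then 1 (nitrogen), 1 (wall), 4 (transport), 0 (protease), 2 (regulators), 1 (antigen) and 7 (hypothetical).

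No paired analysis was possible because each carbon source has 1 library. Depth limits the lowest levels: 15 members had at most 3 reads on cellulose, 2 on xylan and 2 on rice straw, and ratios there are known only by their wide intervals.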
